A study of Mus musculus with 6 samples.

Results

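The conventional dendritic cell transcription factors considered here were Id2, Irf4, Klf4, Batf3, Relb, Zbtb46 and Notch2. They were chosen by symbol, with earlier results of these data known. All 7 were found among the 23420 gene symbols of the count files. Batf3 had 0 counts in both control plasmacytoid dendritic cell (pDC) libraries and 38.1 and 49.8 CPM (counts scaled to library size) in the conventional dendritic cell (DC) libraries. Id2, Relb and Zbtb46 were also lower in the control pDCs than in the conventional DCs, whereas Irf4, Klf4 and Notch2 did not pass the test between these groups, in which 11.4% of all genes tested were called. In pDCs that carried microspheres, Batf3 and Relb were lower than in the conventional DCs (7.16% of all genes called). Each of these calls was lost in some of the fits that left out a library. Between the pDC groups 0 of the 7 factors and 0% of all genes passed.

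RNA was measured by sequencing in 6 libraries of DCs sorted from the thymus of wild type mice, 2 in each of 3 groups. YG+ pDCs were CD11c low, B220+ cells that carried yellow-green (YG) fluorescent microspheres. They came from mice with MC38 tumour cells, a mouse colon carcinoma line, under the skin. The microspheres entered the tumour at day 12, and the cells were taken 2 days later. PBS pDCs (CD11c low, B220+) and PBS Sirpa+ DCs (CD11c high, Sirpa+) came from mice given PBS, a saline buffer, with the treatment labelled as 2 weeks. In the comparison of the pDC groups the microspheres, the YG gate and the tumour, which no label gives to the PBS mice, cannot be told apart. Whether paired libraries stem from different animals is not stated in the labels, and the p-values cover only the spread of these libraries, which can be technical. In sorted bulk samples, fewer cells of a type and less RNA per cell cannot be told apart either.

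Dendritic cells share a progenitor and part into pDCs, which make type I interferon, and conventional DCs, which present antigen to T cells and in the thymus take part in deleting self-reactive thymocytes. The pDC fate depends on the E protein Tcf4, a DNA-binding helix-loop-helix factor. Id2 is a helix-loop-helix protein without a DNA-binding region that pairs with E proteins and keeps them off DNA, and it is a known mark of the conventional DC fate. Batf3 is required for the cross-presenting conventional DC subset (cDC1). Irf4, Klf4 and the receptor Notch2 act in the Sirpa+ subset (cDC2). Zbtb46 is a zinc finger repressor known from conventional DCs and their committed precursors, and Relb is the NF-kB subunit of the alternative pathway.

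Gene totals ran from 177844 to 713966 counts, and 0.842% to 3.36% of uniquely placed reads lay in genes, with the lowest values in PBS pDC replicate 1. Sirpa+ DC replicate 1 had the next lowest, 261136 counts and 1.13%. PBS pDC replicate 1 stood apart. Its log2 CPM correlated with its partner at r = 0.726, below the 0.855 of the Sirpa+ pair and the 0.934 of the YG+ pair. Summed pDC markers were 5005 to 5281 CPM in PBS pDCs, 3512 to 4946 CPM in YG+ pDCs and 614 to 694 CPM in Sirpa+ DCs, and all 9 were detected in every pDC library. Summed conventional DC markers were 16354 to 20613 CPM in Sirpa+ DCs and 4502 to 5474 CPM over the pDC libraries. Summed macrophage markers (9 genes) were 3677 to 6013 CPM in Sirpa+ DCs, 673 to 1650 CPM in YG+ pDCs and 211 to 370 CPM in PBS pDCs, where Mertk and Fcgr1 were at 0. Summed B cell markers (9 genes) were 692 to 829 CPM over the pDC libraries and 19.9 to 38.1 CPM in Sirpa+ DCs, where Ms4a1, Blk and Pax5 were at 0. Summed T cell and thymocyte markers (9 genes) were 233 to 383 CPM over the pDC libraries and 104 to 110 CPM in Sirpa+ DCs. Cd3g and Ptcra were at 0 in every library, and Cd8b1 alone was at 147 to 262 CPM over the pDC libraries. Tcf7 went the other way, with means of 34.0 CPM in YG+ pDCs, 28.1 CPM in PBS pDCs and 71.7 CPM in Sirpa+ DCs. Summed endothelial markers (3 genes) were 250 to 366 CPM over the pDC libraries and 93.1 to 114 CPM in Sirpa+ DCs. Summed thymic epithelial markers (5 genes) were 6.38 to 30.9 and 132 to 135 CPM in the same order. Epcam alone was at 118 and 102 CPM in the Sirpa+ DC libraries, and Foxn1 was at 0 in every library. The summed markers of these other cell types moved with the groups compared below, and their part in the results was not tested. None of the 7 factors has an exon covered by an opposite-strand exon in GENCODE M21, so no annotated antisense exon lies over the exons counted here. The median log2 of replicate 1 over replicate 2 differed by such cover. For genes with over 50% of exon bases under opposite-strand exons it was 1.25 (PBS pDCs), 0.66 (Sirpa+ DCs) and -0.28 (YG+ pDCs). For genes with none it was -0.36, -0.15 and 0.0054 in the same order. The cause was not tested.

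Promoter windows of 250 bases before the RefSeq start (GRCm38.p6) were found for 6 of the 7 factors, all but Relb. The parts printed here lie outside annotated exons, and they are shown for a pair of the factors called lower in PBS pDCs (Batf3 and Id2) and for factors that did not pass the test between PBS pDCs and Sirpa+ DCs (Irf4 and Notch2). Each is written 5′ to 3′ on the gene's strand, and capitals mark matches to any of 7 motifs searched on both strands. The Batf3 stretch lies at chr1:191098238-191098324 (+), from 176 to 90 bases before the start. The Id2 stretch lies at chr12:25096254-25096342 (-), the Irf4 stretch at chr13:30748983-30749225 (+) and the Notch2 stretch at chr3:98013288-98013526 (+), each beginning 250 bases before the start. The Batf3 and Id2 stretches lie inside the genes as GENCODE M21 annotates them, outside their exons.
Batf3: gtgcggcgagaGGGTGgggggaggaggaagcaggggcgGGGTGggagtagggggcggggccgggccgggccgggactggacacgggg
Id2: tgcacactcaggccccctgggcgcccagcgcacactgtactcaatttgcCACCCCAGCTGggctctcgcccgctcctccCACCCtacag
Irf4: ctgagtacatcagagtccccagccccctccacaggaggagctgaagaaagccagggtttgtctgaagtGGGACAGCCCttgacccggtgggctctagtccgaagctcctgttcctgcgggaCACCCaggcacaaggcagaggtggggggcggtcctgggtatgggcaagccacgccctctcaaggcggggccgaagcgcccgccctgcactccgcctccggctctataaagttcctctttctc
Notch2: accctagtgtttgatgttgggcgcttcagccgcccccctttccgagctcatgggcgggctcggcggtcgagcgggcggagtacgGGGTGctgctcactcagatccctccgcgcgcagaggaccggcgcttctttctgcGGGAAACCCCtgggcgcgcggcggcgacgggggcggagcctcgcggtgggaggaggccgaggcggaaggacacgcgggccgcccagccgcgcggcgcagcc

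The kappa B letters (GGGA and CC with 4 bases of any kind between them) occurred in the windows of Irf4 and Notch2 and in 17.6% of all 32851 mouse promoter windows of that length. The E box letters (CANNTG), which E proteins bind, occurred in the windows of Id2, Klf4, Batf3 and Zbtb46 and in 66.2% of all windows. KLF letters (CACCC) occurred in 5 of the 6 windows, all but that of Klf4, and in 52.0% of all windows. The AP-1 letters (TGANTCA) occurred in Zbtb46, 61 to 55 bases before the listed start, and in 6.75% of all windows. The Zbtb46 window also lies inside the gene as GENCODE M21 annotates it, and it is not printed. No window of the 6 held the letters of IRF (GAAA and GAAA with 2 bases of any kind between them, in 2.98% of all windows), ETS-IRF (GGAA and GAAA with 2 bases between them, 2.30%) or RBPJ (TGGGAA, 21.6%). The IRF and ETS-IRF letters can overlap, as can those of kappa B and RBPJ. The matches are a description of the letters only.

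The plot of the levels by library shows the 7 factors over the 3 groups. CPM here is scaled to the summed counts of the genes tested, multiplied by TMM factors. A count of 0 allows a level of up to 4.21 to 19.1 CPM, depending on the library (3 counts), with the highest limit in PBS pDC replicate 1. The limits cover counting error only.

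**Figure D1:**
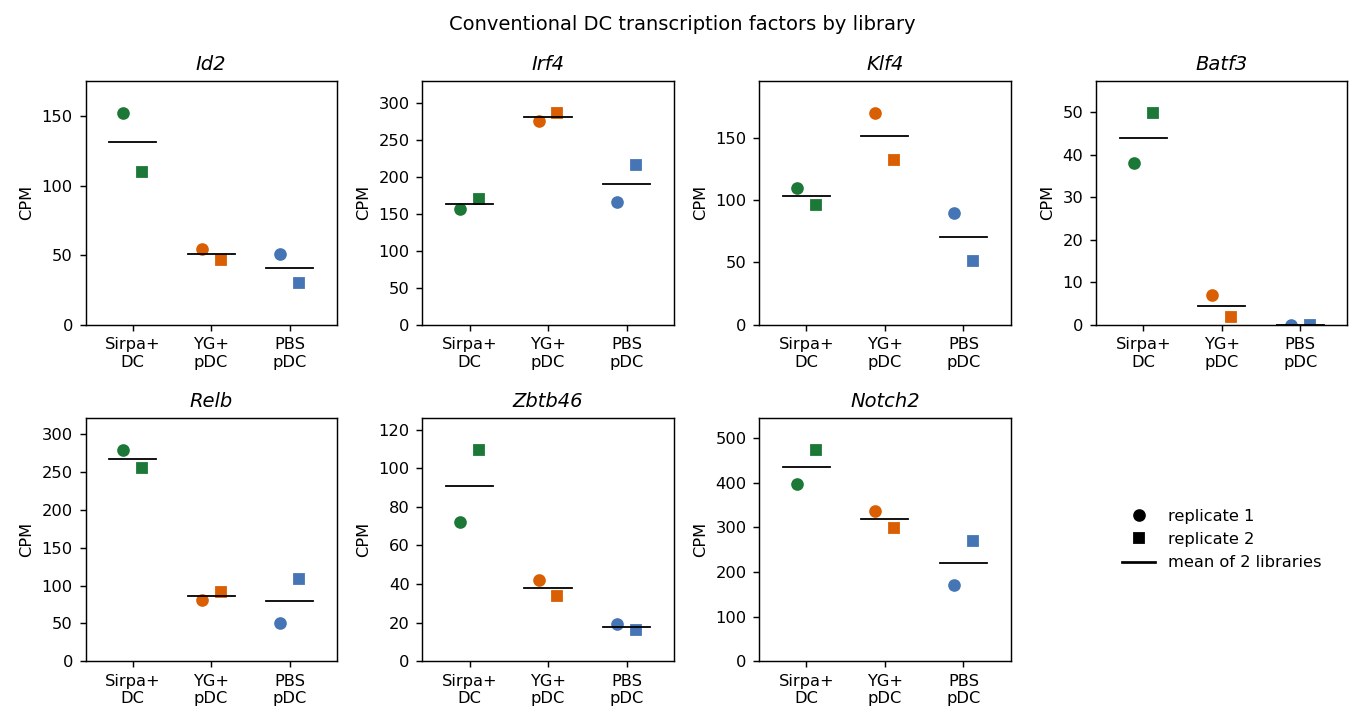
Level in CPM of each of the 7 factors in each library (circle, replicate 1; square, replicate 2), with the mean of the 2 libraries as a bar, for Sirpa+ DCs (green), YG+ pDCs (orange) and PBS pDCs (blue). Id2, Batf3, Relb, Zbtb46 and Notch2 were highest in both Sirpa+ DC libraries, and Irf4 and Klf4 were highest in both YG+ pDC libraries.

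Id2 (12:25093799-25097140, minus strand) was measured at 152 and 110 CPM in the Sirpa+ DC libraries, 54.8 and 46.5 CPM in the YG+ pDC libraries and 51.0 and 30.1 CPM in the PBS pDC libraries. Both Sirpa+ libraries lay above every pDC library, and the pDC groups overlapped. Id2 was lower in PBS pDCs than in Sirpa+ DCs by a log2 fold change of -1.77 ± 0.49 (SE; edgeR's quasi-likelihood test, adjusted p = 0.0395). In YG+ pDCs the log2 fold change against Sirpa+ DCs was -1.34 ± 0.43 (adjusted p = 0.0896), and it did not pass. It passed without PBS pDC replicate 1 (0.0184) or replicate 2 (0.0183) and in the fit of the 4 libraries compared (0.0197). The counts behind these values were small, from 8 in PBS pDC replicate 1 to 55 in Sirpa+ DC replicate 2. The call against PBS pDCs was lost in 5 of 6 fits that left out a library, and it was kept without PBS pDC replicate 1 (adjusted p 0.0128 to 0.190 over the 6 fits). It was also lost with DESeq2 (adjusted p = 0.119) and with only the 4 libraries compared (0.100).

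Tcf4 and Tcf12, E proteins that Id2 can bind, went the other way. Tcf4 was at 376 and 710 CPM in PBS pDCs, 473 and 651 CPM in YG+ pDCs, and 106 and 112 CPM in Sirpa+ DCs. The log2 ratio of Id2 to Tcf4 counts within a library, in which library size cancels, was 0.52 and -0.03 in Sirpa+ DCs, -3.09 and -3.78 in YG+ pDCs, and -2.81 and -4.51 in PBS pDCs. The ratio in both Sirpa+ libraries was thus above that in every pDC library, and the pDC groups overlapped. The means were 0.25 ± 0.38 (SD, n = 2), -3.44 ± 0.49 and -3.66 ± 1.2 in the same order. Of the 7 Id and E protein genes 4 were tested. Over all genes, 4.54% were called higher and 6.89% lower in PBS pDCs than in Sirpa+ DCs. Tcf4 and Tcf12 were higher in PBS pDCs (log2 fold changes 2.33 ± 0.48, adjusted p = 0.0109, and 2.11 ± 0.46, adjusted p = 0.0151) and Id2 was lower. Tcf3, also an E protein, did not pass (-0.23, adjusted p = 0.893). Without either Sirpa+ library, neither E protein passed. Id1, Id3 and Id4 had too few counts to be tested (at most 12 in a library).

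Batf3 (1:191097847-191108945, plus strand), a basic leucine zipper factor, had 9 and 25 counts in Sirpa+ DCs, which came to 38.1 and 49.8 CPM. It had 5 and 1 counts in YG+ pDCs, or 7.02 and 1.79 CPM, and 0 counts in both PBS pDC libraries. Both Sirpa+ libraries lay above every pDC library. At 3 counts over the PBS pDC group, the limit that no count allows, Batf3 could have reached 5.09 CPM there. The Sirpa+ mean of 44.0 CPM was 8.63-fold above that limit, which covers counting error only and not the spread between libraries. Batf3 was called lower in PBS pDCs than in Sirpa+ DCs (edgeR, adjusted p = 0.0178 for the fitted difference, not for the limit). In YG+ pDCs its log2 fold change against Sirpa+ DCs was -3.19 ± 0.83 (adjusted p = 0.0453). A difference in Batf3 between the pDC groups was not detectable at this depth, since the YG+ mean of 4.41 CPM lay under the PBS pDC limit. The PBS pDC call was lost without PBS pDC replicate 2 and without either Sirpa+ library (adjusted p 0.0119 to 0.235 over the 6 fits). The YG+ call was lost without either YG+ library or either Sirpa+ library (0.00749 to 0.488), with DESeq2 (0.153) and with a replicate block (0.0554).

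In the list of basic leucine zipper genes, the BATF and AP-1 family with Batf3 included, 9 of 13 genes were tested. In PBS pDCs 5 were lower, Batf3 among them, and 0 higher than in Sirpa+ DCs. Over all genes 6.89% were called lower and 4.54% higher in this comparison. The median log2 fold change was -2.72, beside 0.08 over all genes. Fosl2 was at 77.0 ± 17.3 CPM (SD, n = 2) in PBS pDCs and 494 ± 22.8 CPM in Sirpa+ DCs (log2 fold change -2.72 ± 0.45, adjusted p = 0.00374). Atf3, a stress-induced partner of the family, was at 13.6 ± 10.2 and 163 ± 39.6 CPM (-3.33 ± 0.60, adjusted p = 0.00608). In YG+ pDCs 7 of the 9 had negative log2 fold changes against Sirpa+ DCs (median -0.96), and Batf3 alone was called lower. Of all genes, 4.09% were called lower in YG+ pDCs. Leaving out a library gave 2 (without Sirpa+ DC replicate 2) to 6 (without PBS pDC replicate 1) lower in PBS pDCs, and 3 without Sirpa+ DC replicate 1. In YG+ pDCs it gave 0 without any YG+ or Sirpa+ library, 4 without PBS pDC replicate 1 and 3 without PBS pDC replicate 2.

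Of 8 tested genes of the Batf3-dependent cDC1 list, 4 were lower and 2 were higher in PBS pDCs than in Sirpa+ DCs. The shares over all genes were 6.89% and 4.54%. The list's median log2 fold change was -0.92. The integrin Itgae was at 12.8 and 9.26 CPM in PBS pDCs and 139 ± 11.6 CPM in Sirpa+ DCs (log2 fold change -3.72 ± 0.56, adjusted p = 0.0024). Clec9a, the dead-cell receptor of cDC1s, was at 38.5 ± 27.4 and 279 ± 59.6 CPM (-2.68 ± 0.53, adjusted p = 0.00887). Cd8a, which is also known from pDCs, went the other way, from 7.10 ± 4.06 CPM in Sirpa+ DCs to 60.2 ± 13.0 CPM in PBS pDCs (2.92 ± 0.62, adjusted p = 0.0134). The list thus held genes of both directions. In YG+ pDCs 3 were lower and 1 was higher, beside 4.09% and 3.07% of all genes. Without Sirpa+ DC replicate 1 or 2, 1 and 2 were lower in PBS pDCs and 0 higher, and without either YG+ library 1 was higher there. In YG+ pDCs 0 were lower without either YG+ library or Sirpa+ DC replicate 2, 1 without Sirpa+ DC replicate 1, and 5 without either PBS pDC library. The higher call there was lost without either Sirpa+ library.

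Zbtb46 (2:181387762-181459426, minus strand) was measured at 71.9 and 110 CPM in Sirpa+ DCs, 42.1 and 34.0 CPM in YG+ pDCs and 19.1 and 16.2 CPM in PBS pDCs. The 3 groups did not overlap, and the YG+ pDCs lay between the others. PBS pDCs were lower than Sirpa+ DCs by a log2 fold change of -2.41 ± 0.56 (edgeR, adjusted p = 0.0189). YG+ pDCs differed from Sirpa+ DCs by -1.27 ± 0.46 (adjusted p = 0.127) and from PBS pDCs by 1.14 ± 0.57 (adjusted p = 0.477), and neither difference passed. The PBS pDC values rest on 3 and 7 counts. The PBS pDC call was lost without PBS pDC replicate 2 and without Sirpa+ DC replicate 2 (adjusted p 0.0126 to 0.159 over the 6 fits) and with DESeq2 (0.0651). The YG+ difference from Sirpa+ DCs passed without PBS pDC replicate 1 (adjusted p = 0.0398), without PBS pDC replicate 2 (0.0385) and with only the 4 libraries compared (0.0371).

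Of the other conventional DC factors 11 of 13 were tested, and 6 were lower and 2 higher in PBS pDCs than in Sirpa+ DCs. The shares over all genes were 6.89% and 4.54%. The list's median log2 fold change was -1.48. Zfp366 (DC-SCRIPT) was at 6.38 ± 9.02 CPM in PBS pDCs and 165 ± 11.3 CPM in Sirpa+ DCs (-5.40 ± 0.86, adjusted p = 0.00318). Etv3, an ETS family repressor, was at 46.6 ± 2.79 and 511 ± 41.0 CPM (-3.44 ± 0.47, adjusted p = 0.00154). Nfil3, a leucine zipper repressor needed for cDC1s, was at 39.4 ± 19.6 and 296 ± 23.9 CPM (-2.79 ± 0.47, adjusted p = 0.00441). The genes that were higher in PBS pDCs were Irf8 and Mycl1, which are known from cDC1s and are also expressed by pDCs. Mycl1 was at 98.1 ± 21.5 CPM in PBS pDCs and 14.3 ± 2.30 CPM in Sirpa+ DCs (2.75 ± 0.60, adjusted p = 0.0145). In YG+ pDCs 4 were lower and 1 was higher, beside 4.09% and 3.07% of all genes. Without Sirpa+ DC replicate 1 or 2, 4 and 3 were lower in PBS pDCs and 0 higher. In YG+ pDCs 1 was lower and 0 higher without any of the YG+ and Sirpa+ libraries, and 2 were higher without either PBS pDC library. Of the 7 pDC factors, all tested, 3 were higher in PBS pDCs (Runx2, Spib and Tcf4) and 4 in YG+ pDCs. Those counts fell to 1 without either Sirpa+ library in PBS pDCs, and in YG+ pDCs to 1 without YG+ pDC replicate 2 and 0 without either Sirpa+ library.

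Relb (7:19606217-19629438, minus strand) was measured at 279 and 255 CPM in Sirpa+ DCs, 81.5 and 91.3 CPM in YG+ pDCs and 51.0 and 109 CPM in PBS pDCs. Both Sirpa+ libraries lay above every pDC library, and the YG+ values fell between the values of the PBS pDC pair. Relb was lower than in Sirpa+ DCs in PBS pDCs (log2 fold change -1.66 ± 0.45, edgeR, adjusted p = 0.0374) and in YG+ pDCs (-1.63 ± 0.43, adjusted p = 0.0458). Both comparisons use the same Sirpa+ libraries. Between the pDC groups the log2 fold change was 0.030 (95% interval -0.97 to 1.03), and its sign turned without PBS pDC replicate 1 (-0.34). The PBS pDC call was lost without either YG+ library or either Sirpa+ library (adjusted p 0.00932 to 0.158 over the 6 fits) and with only the 4 libraries compared (0.101). The YG+ call was lost without any of those same libraries (0.00247 to 0.398).

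In the NF-kB list 19 of 20 genes were tested. In PBS pDCs 5 were lower and 0 higher than in Sirpa+ DCs, beside 6.89% and 4.54% of all genes. The median log2 fold change was -0.89. Besides Relb these were the subunit Rel, the kinase Map3k14 (NIK) that starts the alternative pathway, and its receptors Cd40 and Tnfrsf11a (RANK). Rel was at 216 ± 44.3 CPM in PBS pDCs and 759 ± 20.4 CPM in Sirpa+ DCs (-1.80 ± 0.42, adjusted p = 0.0192). Tnfrsf11a was at 12.2 ± 0.839 and 78.8 ± 9.76 CPM (-2.70 ± 0.63, adjusted p = 0.0193). Cd40 was at 8.97 ± 3.67 and 75.2 ± 13.3 CPM (-2.87 ± 0.63, adjusted p = 0.0156). Relb and Tnfrsf11a were also lower in YG+ pDCs, the 2 calls of the list there, beside 4.09% lower and 3.07% higher over all genes. Leaving out a YG+ library reduced the PBS pDC count to 2, and leaving out a Sirpa+ library reduced it to 0. The YG+ count was 0 without any of those libraries and 3 without either PBS pDC library. The mature DC list held genes known to be induced when DCs mature. Beside 6.89% and 4.09% of all genes, 11 of its 15 tested genes were called lower in PBS pDCs (median -2.87) and 5 in YG+ pDCs (median -1.46). The first count fell to 7 without Sirpa+ DC replicate 1 and to 5 without Sirpa+ DC replicate 2. The second was 0 without YG+ pDC replicate 1 or either Sirpa+ library, 1 without YG+ pDC replicate 2 and 11 without either PBS pDC library.

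Irf4 (13:30749226-30766976, plus strand), an interferon regulatory factor of cDC2s, was measured at 157 and 169 CPM in Sirpa+ DCs, 275 and 286 CPM in YG+ pDCs and 166 and 215 CPM in PBS pDCs. Both YG+ libraries lay above the other 4, and PBS pDCs overlapped Sirpa+ DCs. None of its differences passed. The log2 fold change of PBS pDCs against Sirpa+ DCs was 0.24 ± 0.40 (95% interval -0.65 to 1.12, adjusted p = 0.784), and it turned to -0.032 without PBS pDC replicate 2. For YG+ pDCs against Sirpa+ DCs it was 0.78 ± 0.39 (-0.08 to 1.64, adjusted p = 0.270), and against PBS pDCs it was 0.54 ± 0.39 (-0.32 to 1.41, adjusted p = 0.643). The intervals thus span both no change and changes past a log2 of 1.

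Irf8, the related factor of cDC1s and pDCs, was at 262 and 335 CPM in Sirpa+ DCs, 1117 and 1559 CPM in YG+ pDCs and 1199 and 1678 CPM in PBS pDCs. Over all genes, 4.54% were called higher and 6.89% lower in PBS pDCs than in Sirpa+ DCs. In YG+ pDCs the shares were 3.07% and 4.09%. Irf8 was higher in PBS pDCs than in Sirpa+ DCs (log2 fold change 2.26 ± 0.45, adjusted p = 0.00942), the 1 called gene of the 9 tested in the IRF family. This call was lost without either Sirpa+ library, and without PBS pDC replicate 2 another member of the family passed as lower. In YG+ pDCs Irf8 was higher by 2.16 ± 0.45 (adjusted p = 0.0155), and it was lost there without any YG+ or Sirpa+ library. The log2 ratio of Irf4 to Irf8 counts was -0.74 and -0.98 in Sirpa+ DCs, -2.02 and -2.44 in YG+ pDCs and -2.83 and -2.96 in PBS pDCs. Irf8 had the higher count in all 6 libraries, and the 3 groups did not overlap in the ratio. With 2 libraries a group, no test of the ratios was made.

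**Figure D2:**
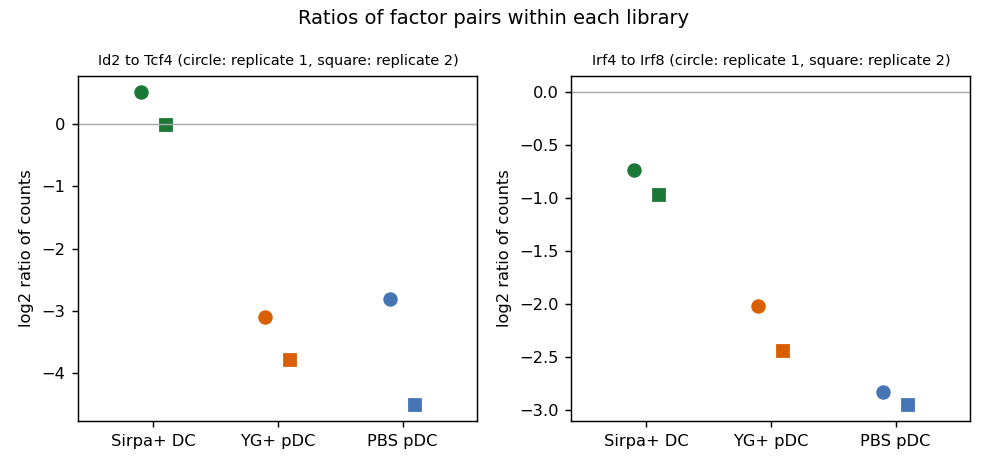
Log2 ratio of counts (pseudocount 0.5) of Id2 to Tcf4 on the left and of Irf4 to Irf8 on the right, 1 point per library (circle, replicate 1; square, replicate 2). Both ratios were highest in the 2 Sirpa+ DC libraries; the pDC groups overlapped for Id2 to Tcf4 and not for Irf4 to Irf8.

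Klf4 (4:55527143-55532466, minus strand), a zinc finger factor of a cDC2 subset, was measured at 110 and 95.7 CPM in Sirpa+ DCs, 170 and 132 CPM in YG+ pDCs and 89.3 and 50.9 CPM in PBS pDCs. The 3 groups did not overlap, with YG+ pDCs highest and PBS pDCs lowest. Between the pDC groups the log2 fold change was 1.18 ± 0.45 (95% interval 0.19 to 2.18, edgeR's unadjusted p = 0.0233, adjusted p = 0.359), and it did not pass over all genes. Against Sirpa+ DCs it was -0.62 ± 0.47 in PBS pDCs (-1.64 to 0.41, adjusted p = 0.479) and 0.57 ± 0.42 in YG+ pDCs (-0.36 to 1.49, adjusted p = 0.466). The PBS pDC values rest on 14 and 22 counts. Of the 17 KLF genes 6 were tested. Over all genes, 4.54% were called higher and 6.89% lower in PBS pDCs than in Sirpa+ DCs. In YG+ pDCs the shares were 3.07% and 4.09%. Klf2, known from resting lymphocytes, was the 1 of the 6 called in each of these comparisons. It was at 37.6 ± 30.6 CPM in Sirpa+ DCs, 177 ± 1.93 CPM in PBS pDCs (log2 fold change 2.38 ± 0.58, adjusted p = 0.0233) and 235 ± 34.5 CPM in YG+ pDCs (2.78 ± 0.57, adjusted p = 0.0146). Klf2's PBS pDC call was lost without Sirpa+ DC replicate 2, and its list then had 0. Its YG+ call count was 0 without YG+ pDC replicate 2 or Sirpa+ DC replicate 2. With either PBS pDC library left out, 2 KLF genes were called in YG+ pDCs, and without PBS pDC replicate 1 there were also 2 in PBS pDCs. Without PBS pDC replicate 2, 1 KLF gene passed as lower in PBS pDCs.

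Notch2 (3:98013527-98150361, plus strand), a receptor cleaved on contact with its ligands, was measured at 398 and 475 CPM in Sirpa+ DCs, 337 and 299 CPM in YG+ pDCs and 172 and 271 CPM in PBS pDCs. The 3 groups did not overlap, in that order. Its log2 fold change against Sirpa+ DCs was -0.96 ± 0.42 in PBS pDCs (95% interval -1.88 to -0.03, adjusted p = 0.192) and -0.46 ± 0.41 in YG+ pDCs (-1.36 to 0.44, adjusted p = 0.550). Between the pDC groups it was 0.50 (adjusted p = 0.693), and none passed. Notch2 shares 541 exon bases with Gm42820 on the same strand, which is not among the symbols of the count files.

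The Notch list had 24 of 32 genes tested, with 3 higher and 2 lower in PBS pDCs than in Sirpa+ DCs. The shares over all genes were 4.54% and 6.89%. The list's median log2 fold change was -0.42. The receptor Notch3 was at 36.2 ± 11.9 CPM in PBS pDCs and 508 and 189 CPM in the Sirpa+ DC libraries (-3.33 ± 0.60, adjusted p = 0.00594). The ligand Dll4 was at 83.7 ± 19.1 and 25.8 ± 5.44 CPM (1.77 ± 0.49, adjusted p = 0.039). The ligand Dll1 was at 38.3 and 34.7 CPM in PBS pDCs, 8.43 and 25.1 CPM in YG+ pDCs and had 0 counts in both Sirpa+ DC libraries (adjusted p = 0.0203 for PBS pDCs). Dll1 passed the filter on low counts through its pDC counts, so its call is not independent of that filter. Opposite-strand exons cover 20.6% of Dll1's exon bases, so its reads are uncertain if strand was not used. In YG+ pDCs 1 of the 24 was called higher than in Sirpa+ DCs (Dll4) and 1 lower (Notch3), beside 3.07% and 4.09% of all genes. The higher count in PBS pDCs was 1 without either YG+ library, 2 without PBS pDC replicate 2 and 0 without either Sirpa+ library. The lower count was 1 without any of the YG+ or Sirpa+ libraries and 4 without PBS pDC replicate 2. In YG+ pDCs the counts were 5 higher and 3 lower without either PBS pDC library, 0 higher without any YG+ or Sirpa+ library, and 0 lower without those except Sirpa+ DC replicate 2.

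In the list of genes linked to Irf4, Klf4 or Notch2 in cDC2s, 13 of 15 were tested. In PBS pDCs 4 were lower and 1 higher than in Sirpa+ DCs, beside 6.89% and 4.54% of all genes. The list's median was -1.17. The chemokine Ccl22 was at 152 ± 16.9 CPM in PBS pDCs, 398 ± 74.6 CPM in YG+ pDCs and 1112 ± 109 CPM in Sirpa+ DCs (PBS pDCs against Sirpa+ DCs -2.85 ± 0.44, adjusted p = 0.0027). The chemokine receptor Cx3cr1 was at 6.94 ± 9.82 CPM in PBS pDCs and 157 ± 18.1 CPM in Sirpa+ DCs (-3.99 ± 0.66, adjusted p = 0.00391). The chemokine Ccl17 had 0 counts in both PBS pDC libraries and was at 84.6 and 61.8 CPM in Sirpa+ DCs. Ccl17 passed the filter on low counts through its Sirpa+ DC counts, so its calls are not independent of that filter. The lectin Clec10a went the other way, at 137 ± 48.9 CPM in PBS pDCs and 37.1 ± 7.36 CPM in Sirpa+ DCs (1.95 ± 0.47, adjusted p = 0.0231). In YG+ pDCs Ccl17 and Cx3cr1 were called lower than in Sirpa+ DCs and 0 genes higher, beside 4.09% and 3.07% of all genes. The lower count in PBS pDCs was 2 without either Sirpa+ library, and Clec10a was lost without any YG+ or Sirpa+ library. In YG+ pDCs the lower count was 1 without YG+ pDC replicate 2, 0 without either Sirpa+ library, 5 without PBS pDC replicate 1 and 4 without PBS pDC replicate 2, and 3 were higher without either PBS pDC library. Esam and Clec4a4, surface markers of Notch2-dependent splenic cDC2s, had at most 1 count in a library and were not tested.

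Over the 7 factors, 4 passed the test as lower in PBS pDCs than in Sirpa+ DCs (Id2, Batf3, Relb and Zbtb46) and 0 as higher, where 11.4% of all 8141 genes tested were called, 6.89% lower and 4.54% higher. Their median log2 fold change was -1.66, beside 0.08 over all genes. In 6 of the 7 the groups did not overlap, all lower in PBS pDCs, where 47.1% of all genes did not overlap, 24.2% lower and 22.9% higher. In YG+ pDCs against Sirpa+ DCs, 2 of the 7 passed as lower (Batf3 and Relb), where 7.16% of all genes were called, 4.09% lower and 3.07% higher. Their median log2 fold change was -1.27, beside 0.04. The groups did not overlap in any of the 7, where 62% of all genes did not overlap, 32.8% higher and 29.1% lower. Irf4 and Klf4 were higher in YG+ pDCs and the others lower. The factors were chosen with earlier results of these data known, so their counts beside all genes are a description only. Batf3 passed the filter on low counts through its Sirpa+ DC counts (9 and 25), so its calls are not independent of that filter. Each of these calls was lost in some of the fits that left out a library, as given for each factor above. Id2 and Zbtb46 passed in YG+ pDCs in some of them. The number called over all genes moved in these fits too, so such moves cannot be read as a trait of the factors. Over the 6 fits, log2 fold changes of PBS pDCs against Sirpa+ DCs ran from -2.07 to -1.37 (Id2), -2.43 to -1.28 (Relb) and -2.67 to -2.02 (Zbtb46). Those of YG+ pDCs ran from -4.42 to -2.62 (Batf3) and -1.71 to -1.57 (Relb).

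The pDC groups were compared to ask whether thymic pDCs that carried microspheres differ in these factors from pDCs of PBS mice. None of the 7 passed, and 0% of the 8141 genes passed in edgeR's test, with 929 (11.4%) at an unadjusted p under 0.05. limma-voom called 0 genes, and DESeq2 called 131 genes and 0 of the factors. The 6 fitted differences other than that of Batf3 were positive. The median log2 fold change of the 7 was 0.54 (0.50 with Batf3 set to no difference), beside 0.08 over all genes. That of Relb, at 0.030, turned negative under DESeq2's size factors. In 4 of the 7 (Irf4, Klf4, Zbtb46 and Notch2) both YG+ libraries lay above both PBS pDC libraries, where 26.5% of all genes were higher without overlap and 45.8% did not overlap. Batf3, with 5 and 1 counts against 0 and 0, is left out of the 4. Klf4 had the smallest p of the 7. Id2 differed by a log2 of 0.42 (95% interval -0.67 to 1.51, adjusted p = 0.794). The macrophage markers were higher in YG+ pDCs in all 8 genes tested (median log2 fold change 3.01, or 2.94 with Mertk at its bound), and 0 passed. Without PBS pDC replicate 2, 870 genes passed between the pDC groups and 0 of the 7 factors did.

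**Figure D3:**
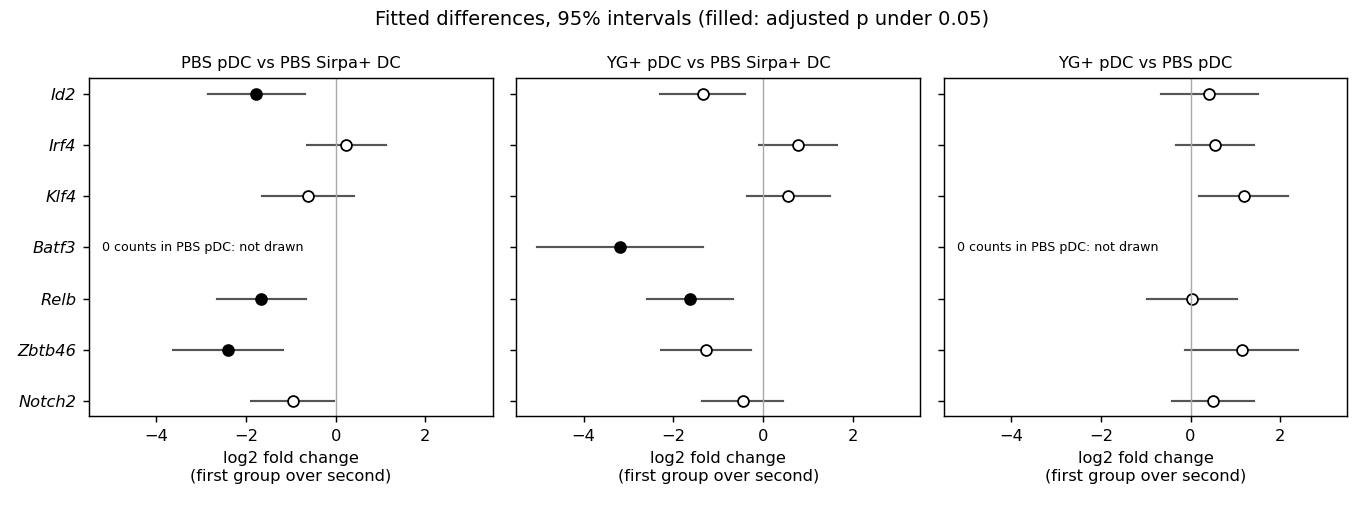
Log2 fold changes (first group over second) with 95% intervals from the edgeR fit, for the 7 factors in each of the 3 comparisons; filled points had an adjusted p under 0.05. Of the 7, 4 were called lower in PBS pDCs and 2 in YG+ pDCs against Sirpa+ DCs and 0 between the pDC groups; Batf3 is not drawn where PBS pDCs enter, since it had 0 counts there.

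Per kilobase of exon, the factors held different orders in the groups. In Sirpa+ DCs Relb was highest at 68.8 ± 4.38 CPM per kb (SD, n = 2), followed by Id2 at 53.7 ± 12.4 and Notch2 at 40.5 ± 5.03 CPM per kb. Klf4 (33.7), Irf4 (33.2) and Batf3 (27.5) came next, and Zbtb46 was lowest at 10.7 CPM per kb. Klf4 (31.4 to 36.1) and Irf4 (31.9 to 34.6) overlapped in their libraries, and the other neighbours in this order did not. In YG+ pDCs Irf4 led at 57.3 ± 1.58 CPM per kb, just above Klf4 at 49.6 ± 8.71, with Notch2, Relb and Id2 between 20.8 and 29.5 CPM per kb. The means of Irf4 and Klf4 differed by less than the SD of Klf4, and the libraries of Relb and Id2 overlapped. In PBS pDCs Irf4 led at 38.9 ± 7.12 CPM per kb, and Klf4 (23.0), Relb (20.6), Notch2 (20.5) and Id2 (16.6) overlapped each other. Zbtb46 and Batf3 held the lowest places in all 3 groups, with Batf3 above Zbtb46 in Sirpa+ DCs. In PBS pDCs their order is not established, since Batf3 had 0 counts there. The libraries of Zbtb46 and Batf3 overlapped in YG+ pDCs.

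**Figure D4:**
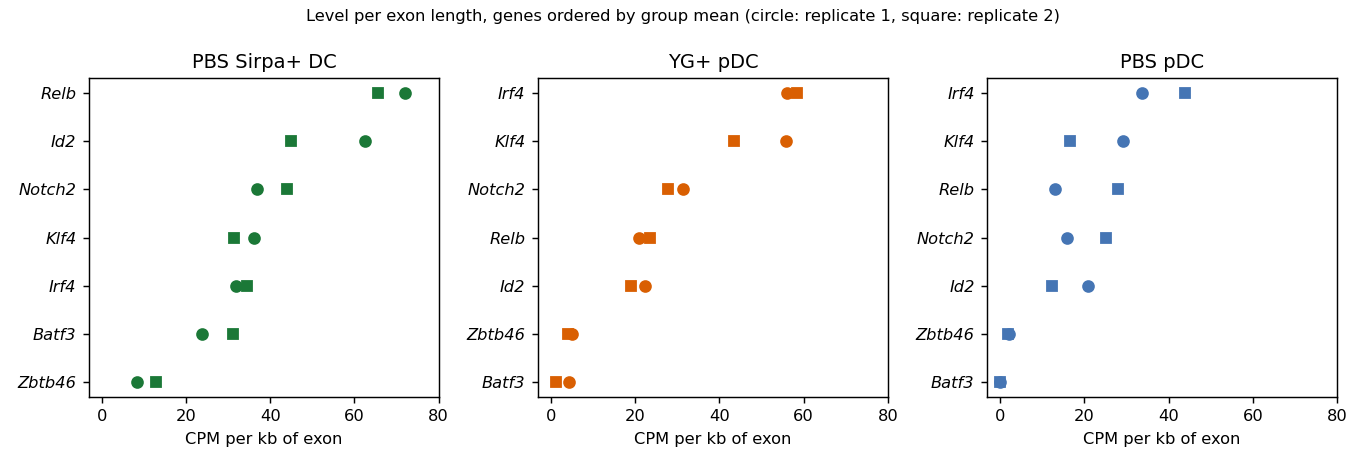
Level per exon length (CPM per kb) of the 7 factors in each group, ordered by the mean of the 2 libraries (circle, replicate 1; square, replicate 2). Relb led in Sirpa+ DCs at 68.8 CPM per kb, and Irf4 led in YG+ pDCs at 57.3 and in PBS pDCs at 38.9.

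The genes whose log2 CPM ran most like each factor over the 6 libraries were ranked by Pearson's r. With 6 libraries in 3 groups that share depth and cell type, r is a description and many genes reach high values. For Id2 the 3 nearest were Jhdm1d (0.999), Mllt6 (0.994) and Zmynd15 (0.994), and 114 of 6977 genes compared had r over 0.95. For Irf4 they were Map7d1 (0.997), Jmjd1c (0.996) and Brd2 (0.992), with 52 genes over 0.95. Klf4 had 6 such genes, led by Tec (0.992), Ttll5 (0.986) and Drg2 (0.968). Batf3 had 182, led by Cacul1 (0.998), Osm (0.997) and Dnase1l3 (0.996). Relb had 57, led by H2-DMb1 (0.991), Aph1c (0.988) and Hlx (0.985). Zbtb46 had 151, led by Nabp1 (0.996), Gna12 (0.995) and Tmsb4x (0.994). Notch2 had 213, led by Ctsc (0.998), Irf5 (0.998) and Cux1 (0.997). Among the factors themselves, Batf3 ran with Zbtb46 (r = 0.967) and Id2 (0.927), whereas Irf4 had negative r with 5 of the others and 0.42 with Klf4.

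The plot of the lists places the 7 factors beside the gene lists described above. The family and pathway lists include the factors that belong to them. The factors, the other conventional DC factors, the BATF and AP-1 family and the mature DC genes had medians below -1 in PBS pDCs against Sirpa+ DCs, as did the cDC2 list, while the pDC factors had a median of 2.16. In YG+ pDCs the medians of the BATF and AP-1 family (-0.96), the mature DC genes (-1.46) and the other conventional DC factors (-0.84) were closer to 0, and that of the cDC1 list (-1.21) was further from 0 than in PBS pDCs (-0.92). Between the pDC groups themselves, however, 6 of the 8 tested cDC1 genes were higher in YG+ pDCs and 2 lower (median 0.52). No gene of these lists was called between the pDC groups.

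**Figure D5:**
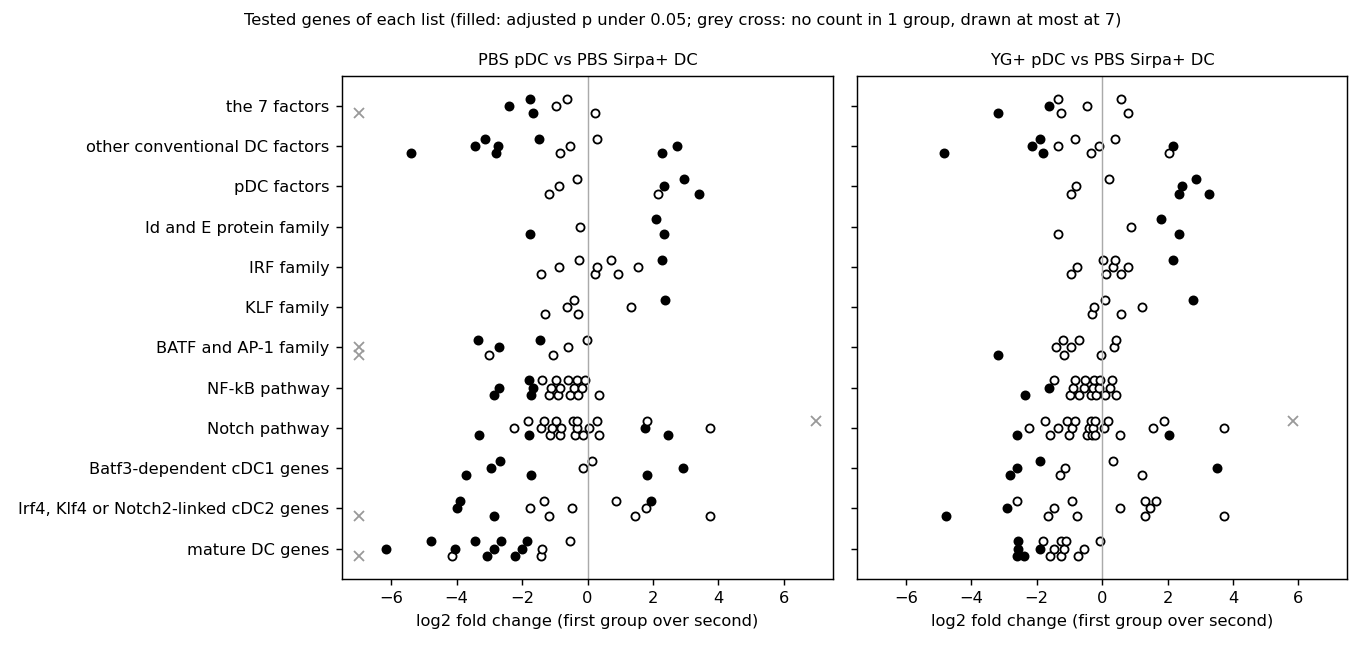
Log2 fold change of every tested gene of each list in PBS pDCs (left) and YG+ pDCs (right) against Sirpa+ DCs; filled points had an adjusted p under 0.05, and grey crosses are genes with 0 counts in 1 of the groups. In PBS pDCs all 15 tested mature DC genes and all 9 tested BATF and AP-1 genes (Batf3 included) lie below 0, and 11 and 5 of them passed.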

How the data were processed

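Per the labels' protocols, thymic DCs were sorted on a BD FACSAria III, TRIzol was used for RNA, and 5 ng of it entered the Ovation SoLo RNA-Seq Mouse kit. The labels give batch 1 for every sample. The deposited values are whole-number counts of reads per gene symbol in 1 file per sample, not normalised. The submitters' processing notes name bcl2fastq 2.17 and mm10; how reads were aligned and counted, with which annotation and strand setting, is not given in the sources used. The 5 summary lines of each file (97.7% to 99.5% of records) were left out of library sizes and tests.

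Genes passing filterByExpr (8141) were scaled by TMM (factors 0.924 to 1.09) and tested with edgeR 4.0.16 (glmQLFit, glmQLFTest) in R 4.3.3, all 6 libraries in 1 fit of group means (3 residual degrees of freedom), with Benjamini-Hochberg adjustment over all genes and calls at 0.05. All 7 factors passed the filter, Batf3 with counts in Sirpa+ DCs and few or none in pDCs. CPM used the same scaling, with a floor of 3 counts. Intervals are 95%. Median log2 fold changes of lists include genes with 0 counts in a group at their fitted value, and with such genes at their bound (3 counts over the group) the medians printed were the same unless both are given. Coordinates and exon lengths came from GENCODE M21 (GRCm38), in which 21785 of 23420 symbols (93.0%) were found by current symbol; Sfpi1, Mycl1, Emr1 and Beta-s stand for Spi1, Mycl, Adgre1 and Hbb-bs. Promoters came from RefSeq GRCm38.p6. Likeness used genes whose mean reached 20 CPM and a prior count of 2, without predicted genes and receptor segments. From each list, genes among the 4 smallest p in a comparison were named, from the top, with Tcf4 and Irf8 added; others are named for being the rest of a small count or absent, after their values were seen. A few genes under this rule are not reported here. The members and lists were chosen with earlier results of these data known. The fit was tested on simulated counts. Alternatives were DESeq2 1.42.0, limma 3.58.1 (voom), other scalings and filters, a fit restricted to the 4 libraries compared, a replicate block, removal of Rn45s, Malat1, Tsix and Xist, each library left out in turn and, chosen after seeing the data, only genes with no opposite-strand exon. Python 3.11.15, pandas 2.3.3, numpy 2.4.6 and matplotlib 3.10.9 were used.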

Additional observations from a re-analysis of the deposited data

How the results depend on the processing

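Counts of genes called are given in the order YG+ against PBS pDCs, PBS pDCs against Sirpa+ DCs and YG+ pDCs against Sirpa+ DCs, beside 0, 931 and 583 as reported. No filter on low counts gave 141, 1235 and 894 genes, DESeq2 131, 726 and 533, and the fit of the 4 libraries compared 0, 580 and 1480. Among the 7 factors, DESeq2 called 0, 2 and 1, and the 4-library fit called 0, 2 and 4, beside 0, 4 and 2. Leaving out each library gave 0 to 870, 214 to 1297 and 69 to 1487 genes, 0, 0 to 4 and 0 to 4 factors, and 0 to 8, 16 to 56 and 2 to 52 distinct genes of the lists, beside 0, 50 and 27. A lone library left in a group was assumed to vary like the other groups. The cause of these moves was not tested.

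The log2 fold change of Relb between the pDC groups, 0.030, was -0.030 under DESeq2's size factors, -0.023 in the 4-library fit and -0.16 with only genes with no opposite-strand exon (chosen after seeing the data), and it ran from -0.34 to 0.79 when a library was left out. That of Irf4 between PBS pDCs and Sirpa+ DCs ran from -0.032 (without PBS pDC replicate 2) to 0.40. In YG+ pDCs against Sirpa+ DCs, Id2 passed in the 4-library fit (adjusted p = 0.0197), with only genes with no opposite-strand exon (0.0337), and without PBS pDC replicate 1 (0.0184) or 2 (0.0183).

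The replicate block called 0, 942 and 635 genes and 0, 4 and 1 factors. Same-numbered samples correlated in their deviations from group means at -0.12 (pDC groups), -0.10 (YG+ pDCs and Sirpa+ DCs) and 0.30 (PBS pDCs and Sirpa+ DCs). The labels do not say that a number marks anything shared, so whether same-numbered samples share more than a number is not known. The count ratios moved by less than 1 SD with a pseudocount of 1. Depth limits Batf3 and Zbtb46 most, at 0 to 7 counts per library in PBS pDCs.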
